A study of Mus musculus with 76 samples.

Results

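The step from natural DN4 to natural DP thymocytes was compared across all genes. DN4 cells are the last of the CD4- CD8- double negative stages of the mouse thymus, and DP cells carry both coreceptors, CD4 and CD8. The comparison holds the 3 libraries labelled DN4 and the 4 labelled DP, chosen by their titles, which makes 7 of the 76 libraries of the series (75 distinct ones, since 1 pro/pre-B library repeats another). The series measured RNA in bone marrow and thymus cells of the C57BL/6 strain, with 1000 sorted cells in each library, and asked how far thymocytes made from B lineage cells follow natural ones. Natural cells carry no label of a transduction or a transplant. Induced cells, used here for 1 comparison, are the thymocytes sorted from sublethally irradiated recipients of bone marrow pro/pre-B cells that had been infected in vitro with a virus carrying Hoxb5 (a homeobox gene), with 4 induced DN4 and 3 induced DP libraries. All 14 libraries are labelled thymus. No age, sex or sorting gate was given in the labels, and recipients may still hold thymocytes of their own. Whether a group's libraries stem from separate animals or sorts is not stated in the labels, so p-values measure only the spread between these samples, which may be technical.

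Thymocytes that have made a productive T cell receptor beta chain pair it with the invariant pre-T alpha chain. Signals through this pre-T receptor stop rearrangement at the beta locus, drive rapid division and carry the cells through DN4, and often through an immature CD8+ stage, to the DP stage. DP cells leave the cell cycle, express the recombinase again, rearrange the alpha locus and, unless an alpha beta receptor is positively selected, die within the cortex.

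The libraries fitted their labels by Cd4, at most 2.32 FPKM in DN4, and by Il2ra, which marks the preceding DN3 stage. Il2ra was 190 FPKM on average in the 2 natural DN3 libraries and below 5 FPKM in all 7 compared here. The CD8 genes were far lower in DN4 than in DP but not absent, with Cd8b1 at 136 to 196 FPKM in DN4. FPKM are fragments per kilobase of transcript, scaled to the fragments mapped. Low values moved in steps of whole fragments, which gave 3.76 to 4.39 fragments per FPKM and kilobase over the 7 libraries, a like depth in both groups. Genes that reached 1 FPKM numbered 10536 to 10575 in DN4 libraries and 10007 to 10176 in DP libraries. The DP libraries varied more: the median SD of log2(FPKM + 1) within the group was 0.451 in DP and 0.191 in DN4, over 7149 genes at 5 FPKM or more in both groups. Pearson correlations across genes, which are not independent replicates, were 0.968 to 0.971 between DN4 libraries, 0.911 to 0.918 between DP libraries and 0.891 to 0.901 between the groups. DN4 libraries correlated at 0.922 to 0.934 with natural CD8 single positive (SP) libraries. Myeloid markers summed to at most 9.58 FPKM over 12 genes in any of the 7 libraries, and the globin genes were listed at 0. B lineage markers summed to 466.2 to 511 FPKM in DN4 and 513 to 820 in DP, mostly from Ighm, while Pax5 was listed at 0. Of 12 gamma delta and innate T cell markers, 8 were higher in DN4 and 1 lower by the test described below. Of 12 natural killer and cytotoxic markers, 3 were higher in DN4 and 9 did not pass, where 24.6% of all genes passed. Nearly all of the summed FPKM of the latter was Gzma. The values of both lists stand beside the results they accompany.

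Of 17416 genes tested with limma on log2(FPKM + 1), 4288 differed between DN4 and DP at an adjusted p under 0.05 (24.6%). DP was higher in 2055 (11.8%) and lower in 2233 (12.8%). The change was at least 2-fold in 1352 higher and 1535 lower genes, at least 4-fold in 299 and 421, and at least 8-fold in 75 and 97. With the 2 groups fitted alone, so that the error came from DN4 and DP libraries only, 2649 of 11583 genes passed, 1303 higher and 1346 lower. In bulk RNA such as this, fewer cells that express a gene and less RNA per cell cannot be told apart. Lists of genes by function are described below by how many of their tested members passed and by their median log2 fold change. These are to be read against the 24.6% and the median of 0.00 over all genes tested. The filter used all libraries of the series, so the 17416 include genes hardly expressed in DN4 or DP. For lists of expressed genes 24.6% is therefore a low mark. Of protein-coding genes 13.2% were higher and 15.1% lower.

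**Figure D1:**
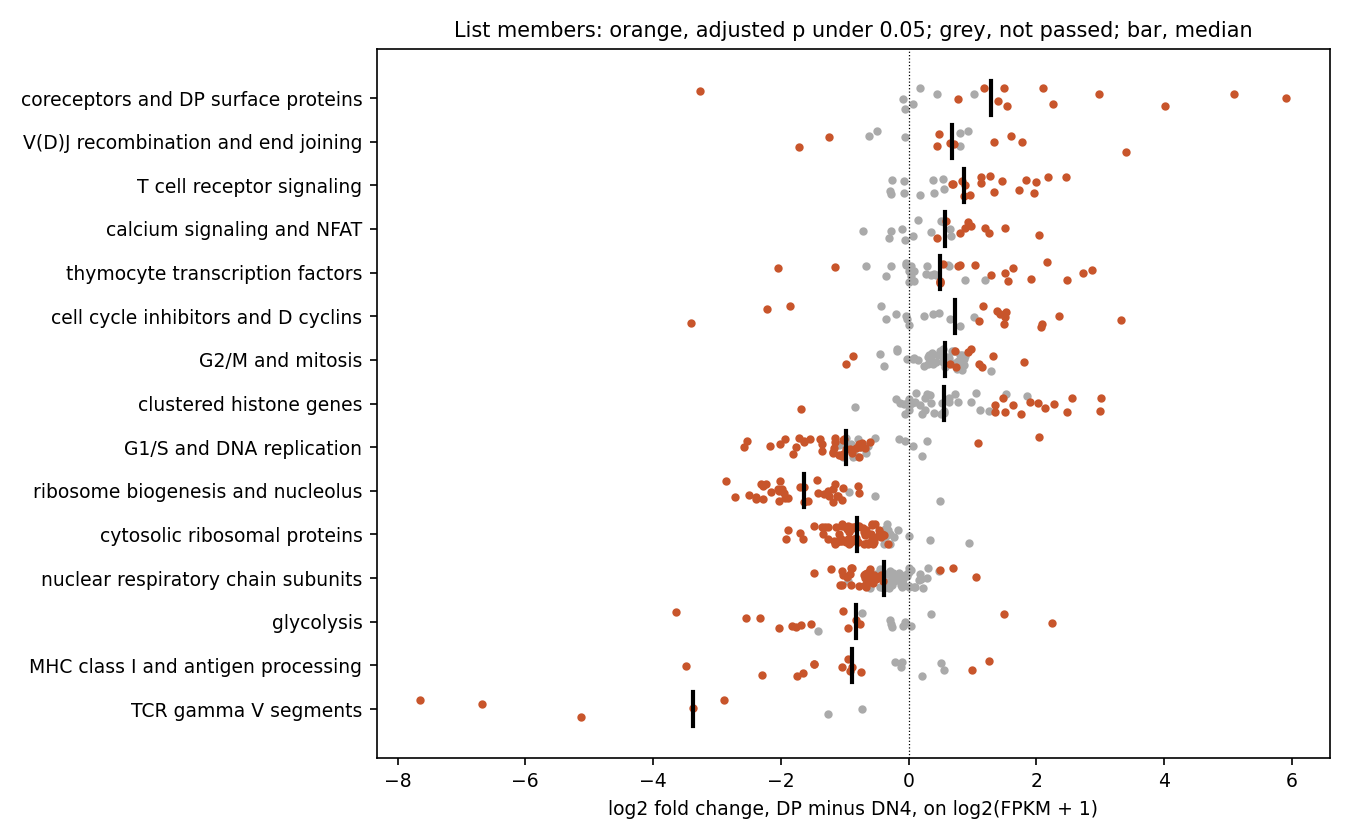
Log2 fold changes (DP minus DN4, on the log2(FPKM + 1) scale, x axis) of every tested member of 15 gene lists, 1 row per list, with orange points past the threshold, grey points not past it and bars at list medians. Replication, ribosome, glycolysis and MHC class I lists lie left of 0, and surface, recombination, receptor signaling and cell cycle inhibitor lists lie to the right.

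Coreceptor genes were among the largest rises. Of 18 coreceptor and DP surface genes, 11 rose, 1 fell and 6 did not pass, with a median log2 fold change of 1.29. Cd8a, which encodes the CD8 alpha chain (GRCm38 chromosome 6, 71373427 to 71379173), was 14.3, 15.2 and 17.9 FPKM in the DN4 libraries and 1117, 1020, 988 and 922 in the DP libraries. Its log2 fold change of 5.92 (SE 0.33, adjusted p = 1.32e-21) was the largest rise of any gene that met the naming rule. Cd8b1, the beta chain gene (chromosome 6, 71322788 to 71337494), went from 156 ± 34.2 FPKM (SD, n = 3) to 2518 ± 158 (SD, n = 4), a log2 fold change of 4.02 (adjusted p = 1.47e-12). Both CD8 genes were thus well above 1 FPKM in every DN4 library, whereas Cd8b1 was 4.06 and 0.238 FPKM in the natural DN3 libraries. Cd4 (chromosome 6, 124864692 to 124888221) was 1.38, 2.32 and 0.829 FPKM in DN4 and 73.5, 95.8, 92.0 and 70.2 in DP. No DN4 value of the 3 coreceptor genes reached a DP value. The Cd4 fold change was 5.09 on the log2 scale (SE 0.22, adjusted p = 5.24e-26).

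Other surface genes rose by less. Plxnd1, a semaphorin receptor that guides DP cells in the thymus, rose from 0.790 ± 0.0616 FPKM (SD, n = 3) to 13.2 ± 1.14 (SD, n = 4), and Slamf1, a SLAM family receptor, from 9.97 ± 2.72 to 51.1 ± 7.81. Cd6, Cd5, Cd27 and Cd28 encode receptors that tune or aid T cell receptor signals, and their log2 fold changes were 2.10, 1.54, 1.5 and 1.40. Cd1d1, which presents lipids to natural killer T cell precursors, rose by 1.17 and Thy1 by 0.77. The calls of Cd5 and Thy1 were lost with a pseudocount of 0.1 (adjusted p = 0.104 and 0.218), and that of Thy1 also without DN4 replicate 3 (adjusted p = 0.0511). Cd53, a tetraspanin of lymphocytes, fell from 30.6 ± 3.17 to 2.42 ± 1.10 FPKM (log2 fold change -3.26). Cd24a, a surface protein of immature thymocytes, was 325 to 443 FPKM in DN4 and 342 to 434 in DP, and the groups overlapped.

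**Figure D2:**
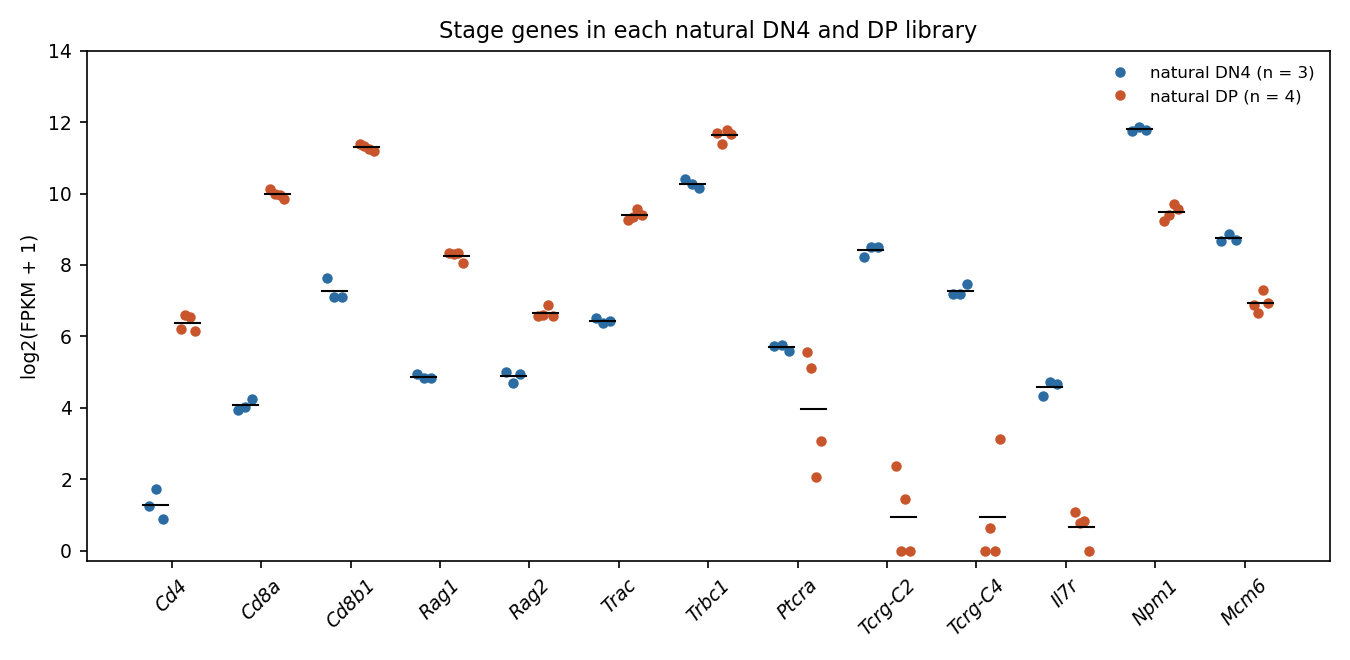
Levels of 13 stage genes as log2(FPKM + 1) (y axis) in the 3 natural DN4 libraries (blue) and the 4 natural DP libraries (orange), with points for libraries and bars for group means. No DN4 point of Cd4, Cd8a, Cd8b1, Rag1, Rag2, Trac or Trbc1 reaches a DP point, and Ptcra is spread from 3.18 to 46.1 FPKM in DP.

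Genes of the recombination machinery rose as well. Of 16 genes of V(D)J recombination and end joining, 8 rose and 2 fell, with a median of 0.68. Rag1, the catalytic recombinase subunit, was 29.5, 27.3 and 27.3 FPKM in DN4 and 323, 313, 323 and 265 in DP, a log2 fold change of 3.40 (SE 0.29, adjusted p = 3.01e-14). Rag2, its partner subunit, was 31.0, 24.99 and 29.8 FPKM in DN4 and 93.4, 95.1, 118 and 93.8 in DP (log2 fold change 1.77, adjusted p = 0.000278). The levels of the 2 genes overlapped in DN4, and Rag1 was about 3 times as abundant as Rag2 in DP, per length. Dntt, which adds untemplated bases to the joins, was already at 759 ± 43.3 FPKM in DN4 and rose by 0.47 to 1056 ± 83.1 in DP. That call was lost with only natural groups in the fit and without DN4 replicate 3 (adjusted p = 0.0576 and 0.0643). Lig4, the ligase of end joining, rose by 1.34 (lost with a pseudocount of 0.1, adjusted p = 0.0693), and Dclre1c, which encodes the hairpin-opening nuclease Artemis, by 1.61. The Dclre1c value rested on DP replicate 3 at 28.7 FPKM against 5.03 to 10.9 in the other DP libraries, and the call was lost without it and with the 2 groups fitted alone (adjusted p from 0.0651 to 0.0740). The Ku subunits moved apart: Xrcc6 rose from 344 ± 42.7 to 562 ± 38.5 FPKM, while Xrcc5 fell from 21.0 ± 3.75 to 6.81 ± 3.86 (adjusted p = 0.00067, and 0.0555 with the 2 groups fitted alone).

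Among the receptor chains themselves, the constant genes of the alpha and beta chains rose and those of the gamma chain fell. Trac, the alpha constant gene, was 89.8, 82.4 and 84.5 FPKM in DN4 and 609, 648, 756 and 671 in DP (log2 fold change 2.95, adjusted p = 8.73e-07). It was listed at 0 in both natural DN3 libraries. Trbc1 rose from 1244 ± 99.3 to 3181 ± 349 FPKM (log2 fold change 1.35, adjusted p = 1.75e-06). Trbc2 was the most abundant receptor gene of the list in both groups, at 2642 ± 116 and 4827 ± 617 FPKM, but its call (log2 fold change 0.86, adjusted p = 0.0256) was lost in 7 alternatives (adjusted p from 0.0522 to 0.482), among them leaving out any 1 DN4 library, DP replicate 1 or DP replicate 2. Trbc1 and Trbc2 are near-identical in sequence, so reads can be shared between them. Of the CD3 chains that carry the receptor's signal, Cd247 (zeta) rose by 1.02, Cd3e by 0.65 and Cd3d by 0.60. The Cd247 call was lost with a pseudocount of 0.1 (adjusted p = 0.169), that of Cd3d also without DP replicate 1 (adjusted p from 0.0689 to 0.388) and that of Cd3e in 9 alternatives (adjusted p from 0.0561 to 0.169), so the list's 6 higher members became 2 with a pseudocount of 0.1 and 3 without DP replicate 1.

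Ptcra, the pre-T alpha gene, was 52.3, 53.5 and 47.6 FPKM in DN4 and 46.1, 33.8, 3.18 and 7.39 in DP. All DP values lay below all DN4 values, but 2 DP libraries were near the DN4 level and 2 far below. The log2 fold change was -1.75 (SE 0.47, adjusted p = 0.00353), and it no longer passed with a pseudocount of 0.1, with the 2 groups fitted alone or without DP replicate 3 (adjusted p from 0.0619 to 0.132).

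For V segments of the alpha locus, 7 of 30 tested rose and 2 fell (3 and 1 with the 2 groups fitted alone). Trav16 was listed at 1.35, 0 and 0 FPKM in DN4 and at 21.0, 2.40, 6.18 and 9.25 in DP. Trav15-2-dv6-2, a segment that both alpha and delta chains can use, was higher in DN4, at 9.80, 7.25 and 20.2 FPKM against 3.67, 0, 1.496 and 0. Among beta V segments 2 of 20 rose (6 with the 2 groups fitted alone), with Trbv16 at 209 ± 67.9 and 522 ± 154 FPKM (adjusted p = 0.00704, and 0.0714 without DN4 replicate 1). All 5 gamma V segments that passed fell, of 7 tested. Trgv2 was 178, 247 and 179 FPKM in DN4 and Tcrg-V4 was 85.2, 119 and 101, and both were listed at 0 in every DP library. V segments are short and alike in sequence, so how their reads were assigned is uncertain.

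The gamma constant genes fell steeply. Tcrg-C2 was 295, 363 and 362 FPKM in DN4 and 4.12, 0, 1.73 and 0 in DP (log2 fold change -7.46, SE 0.47, adjusted p = 4.02e-19), and Tcrg-C1 and Tcrg-C4 fell by 5.58 and 6.33. These genes are alike in sequence and can share reads. In natural DN3 Tcrg-C2 averaged 712 FPKM. Most markers of gamma delta and innate T cells moved with them. Of 12 tested, 8 fell and 1 (Id2) rose. Their sum was 753 to 937 FPKM in DN4 and 58.0 to 101 in DP, with the 3 gamma constant genes in it. Segments of the delta chain did not fall as a list: of 5 tested, 1 rose, 1 fell and 3 did not pass. The delta constant gene Trdc had no values in these data, so the delta chain is described by these segments only. The FPKM of the 7 delta segments listed summed to 47.5 to 54.2 in DN4 and 17.9 to 72.1 in DP, and the groups overlapped. Sox13, a transcription factor of gamma delta T cells, was 15.8 ± 4.41 FPKM in DN4 and listed at 0 in 3 of 4 DP libraries. Blk, Maf and Cd160 averaged 37.5, 5.93 and 16.2 FPKM in DN4 and 0.115, 0.655 and 0.636 in DP. Zbtb16, Tbx21 and Eomes, also members of this marker list, were below 1 FPKM in all 7 libraries. Of 12 natural killer and cytotoxic markers 3 fell (5 with a pseudocount of 0.1), and their sum was 1894 to 2113 FPKM in DN4 and 174 to 251 in DP, nearly all of it Gzma (1968 ± 125 and 198 ± 32.8 FPKM). Ncr1, Klrk1 and Klra8 were listed at 0 throughout. Gzma was 1938 FPKM on average in natural DN3. The part of gamma delta or cytotoxic cells in the fall of these genes was not tested.

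Genes that carry the T cell receptor signal rose together. Of 27 tested, 17 rose and none fell, with a median of 0.87, and 18 rose and none fell with the 2 groups fitted alone. Lck, the coreceptor-bound kinase that starts the signal, was 849, 868 and 859 FPKM in DN4 and 2301, 2211, 1878 and 1923 in DP (log2 fold change 1.27, SE 0.19, adjusted p = 3.9e-07). Lat, the adaptor on which the signal is assembled, rose from 864 ± 109 to 1890 ± 123 FPKM. Themis and Tespa1, both needed for positive selection, rose by 2.18 and 1.96, from 34.0 ± 3.27 to 160 ± 38.7 FPKM and from 34.0 ± 3.21 to 136 ± 19.98. Txk, a Tec family kinase, rose by 2.47 and Rasgrp1, which activates Ras, by 1.47. Negative regulators rose as well: Sla, an adaptor that lowers receptor levels, went from 155 ± 22.2 to 554 ± 77.1 FPKM and Cbl, a ubiquitin ligase, from 3.18 ± 1.22 to 17.1 ± 11.1. Zap70, the kinase that binds the CD3 chains, was 120 to 140 FPKM in DN4 and 167 to 215 in DP. Its libraries did not overlap, yet it passed only with the 2 groups fitted alone (adjusted p = 0.024, against 0.147).

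Calcium signaling followed the same direction, with 10 of 22 genes higher, none lower and a median of 0.57. Orai2, a calcium channel subunit, was 6.17, 8.27 and 6.73 FPKM in DN4 and 36.3, 38.5, 28.2 and 27.1 in DP (log2 fold change 2.05). Nfatc3, a calcium-activated transcription factor, rose from 44.4 ± 3.42 to 131 ± 28.5 FPKM, and Calm2, a calmodulin gene, from 460 ± 20.5 to 884 ± 162.

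Of 39 transcription factors of thymocytes, 16 rose and 2 fell. Satb1, a chromatin organiser, was 439, 428 and 412 FPKM in DN4 and 1912, 2059, 1686 and 2060 in DP. Tcf7, the TCF-1 gene, was 1541 ± 109 FPKM in DN4 and 2251 ± 147 in DP, a log2 fold change of 0.55 that did not pass with a pseudocount of 0.1 (adjusted p = 0.419). Bcl6 was below 1 FPKM in every DN4 library and 9.48, 12.3, 10.6 and 6.77 in DP. Ets2, Sox4, Bcl11b and Myb rose by 2.73, 1.92, 1.64 and 1.55. Rora, a nuclear receptor gene, went the other way, from 4.51 ± 1.47 to 0.315 ± 0.217 FPKM, and Runx3, a factor of the CD8 lineage, from 11.5 ± 2.51 to 4.77 ± 1.87 (adjusted p = 0.000585, and 0.0535 with the 2 groups fitted alone).

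E proteins drive recombination and hold DP cells at their stage. Tcf12, which encodes HEB, rose by 0.49 from 71.4 ± 7.04 to 101 ± 10.3 FPKM, and that call was lost with the 2 groups fitted alone and without DN4 replicate 2 (adjusted p = 0.0578 and 0.0567). Tcf3, which encodes E2A, was 50.9 to 64.1 FPKM in DN4 and 49.0 to 82.2 in DP. Of other factors of early thymocytes, Lef1 was 69.5 to 93.6 and 74.2 to 102 FPKM, and Gata3 76.7 to 81.5 and 75.2 to 128, and the groups overlapped in Tcf3, Lef1 and Gata3.

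Notch genes were split, with 3 of 19 higher and 3 lower (1 and 3 with the 2 groups fitted alone). Notch signals are known to be needed up to beta selection. Notch1 itself fell from 21.3 ± 2.49 to 10.3 ± 2.52 FPKM (log2 fold change -0.99, adjusted p = 0.000205), and Mfng, a glycosyltransferase that modifies Notch receptors, from 34.1 ± 3.39 to 14.9 ± 5.06. The Notch targets Hes1 (3.03 to 4.48 FPKM in DN4, 3.33 to 4.88 in DP) and Dtx1 (3.42 to 5.19 and 1.35 to 10.1) overlapped. Both were higher in natural DN3, at 31.7 and 46.7 FPKM on average.

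Cytokine receptors changed in both directions. Of 28 genes of cytokine receptors and STAT signaling, 9 rose and 6 fell (7 and 3 with the 2 groups fitted alone). Il7r, the receptor of the survival cytokine IL-7, was 19.2, 25.6 and 24.6 FPKM in DN4 and 1.13, 0.693, 0.772 and 0 in DP (log2 fold change -3.91, SE 0.24, adjusted p = 1.42e-19). Il2rb, shared by the IL-2 and IL-15 receptors, was 4.14, 2.71 and 8.54 FPKM in DN4 and listed at 0 in every DP library. Il4ra, the IL-4 receptor chain, was 3.20, 2.61 and 2.94 FPKM in DN4 and 50.5, 53.6, 55.9 and 38.8 in DP (log2 fold change 3.68, SE 0.31, adjusted p = 1.52e-14). The interferon gamma receptor genes Ifngr1 and Ifngr2 rose by 1.31 and 1.33, Jak1 by 0.79 and Pim1, a STAT target kinase, by 2.06. Socs1, which restrains cytokine signals in DP cells, was 2.49 to 4.65 FPKM in DN4 and 4.65 to 9.52 in DP, and its call (adjusted p = 0.0489) was lost in 11 alternatives (adjusted p from 0.0576 to 0.177).

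Receptors of migration divided likewise. Ccr9, which holds thymocytes to the cortex through its ligand CCL25, was 56.5, 57.9 and 64.0 FPKM in DN4 and 426, 482, 418 and 312 in DP (log2 fold change 2.75, adjusted p = 1.42e-10). S1pr1, the receptor for exit from the thymus, was 3.52, 7.15 and 10.02 FPKM in DN4 and at most 0.872 in DP (log2 fold change -2.57). Ccr8 was listed at 0 in every DP library against 1.57 to 4.60 FPKM in DN4, and Itgae, which encodes CD103, fell from 4.43 ± 1.25 to 0.0476 ± 0.0608 FPKM. Ccr7, the receptor that draws selected cells to the medulla, was 6.38 to 8.92 FPKM in DN4 and 0.263 to 8.93 in DP, with 1 DP library as high as the highest DN4 library, and its call was lost in 6 alternatives (adjusted p from 0.0606 to 0.19). Itga6, an integrin gene, rose by 1.26. In all, 5 of 24 genes of chemokine receptors and adhesion rose and 6 fell.

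Genes of DNA synthesis fell. Of 56 genes of G1/S and DNA replication, 36 fell and 2 rose, with a median of -0.98 (34 and 2 with the 2 groups fitted alone). Mcm6, a subunit of the replicative helicase, was 407, 465.9 and 417 FPKM in DN4 and 116, 98.9, 156 and 120 in DP (log2 fold change -1.82, SE 0.15, adjusted p = 3.08e-15). Mcm3, Mcm2 and Mcm5 fell by 2.01, 1.64 and 1.55. Ung, which removes uracil from DNA, was 26.2, 25.4 and 26.5 FPKM in DN4 and 1.39, 3.51, 4.14 and 6.74 in DP. Cdc6, which loads the helicase, fell from 30.7 ± 5.13 to 9.23 ± 6.68 FPKM, with the DP libraries between 1.67 and 17.7. Pcna, the sliding clamp, stayed abundant, at 2328 ± 154 and 1275 ± 237 FPKM (log2 fold change -0.89, and not called with quantile normalization, adjusted p = 0.0583). Rrm2, a subunit of ribonucleotide reductase, overlapped at 172 to 255 and 231 to 251 FPKM. The members that rose were E2f2 (1.09) and E2f7 (2.05), an activator and a repressor of the E2F family.

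Of 57 genes of G2/M and mitosis, 9 rose, 2 fell and 46 did not pass, with a median of 0.57. With the 2 groups fitted alone 17 rose and 1 fell. Ube2c, which works with the anaphase-promoting complex, was 502, 305 and 418 FPKM in DN4 and 1855, 1735, 991 and 1211 in DP (log2 fold change 1.81, SE 0.49, adjusted p = 0.00376). Smc4, a condensin subunit, rose by 1.33, Cenpa, the centromere histone, by 1.15 and Ccnb1, the mitotic cyclin, by 0.98. The Ccnb1 call (adjusted p = 0.038) was lost in 8 alternatives (adjusted p from 0.0574 to 0.189). Top2a was 297 to 394 FPKM in DN4 and 454 to 726 in DP, and Mki67, the gene of the proliferation marker Ki-67, 31.2 to 35.4 and 38.2 to 46.2. Neither passed (adjusted p = 0.188 and 0.367), although the libraries of the groups did not overlap in either gene, and Top2a passed with the 2 groups fitted alone and with a replicate block (adjusted p = 0.0202 and 0.0286). The mean log2(FPKM + 1) over the list was 5.33 to 5.48 in DN4 and 5.71 to 6.16 in DP, above both the 3.68 to 4.13 of natural DN3 and the 3.43 to 3.68 of natural CD4 SP libraries.

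**Figure D3:**
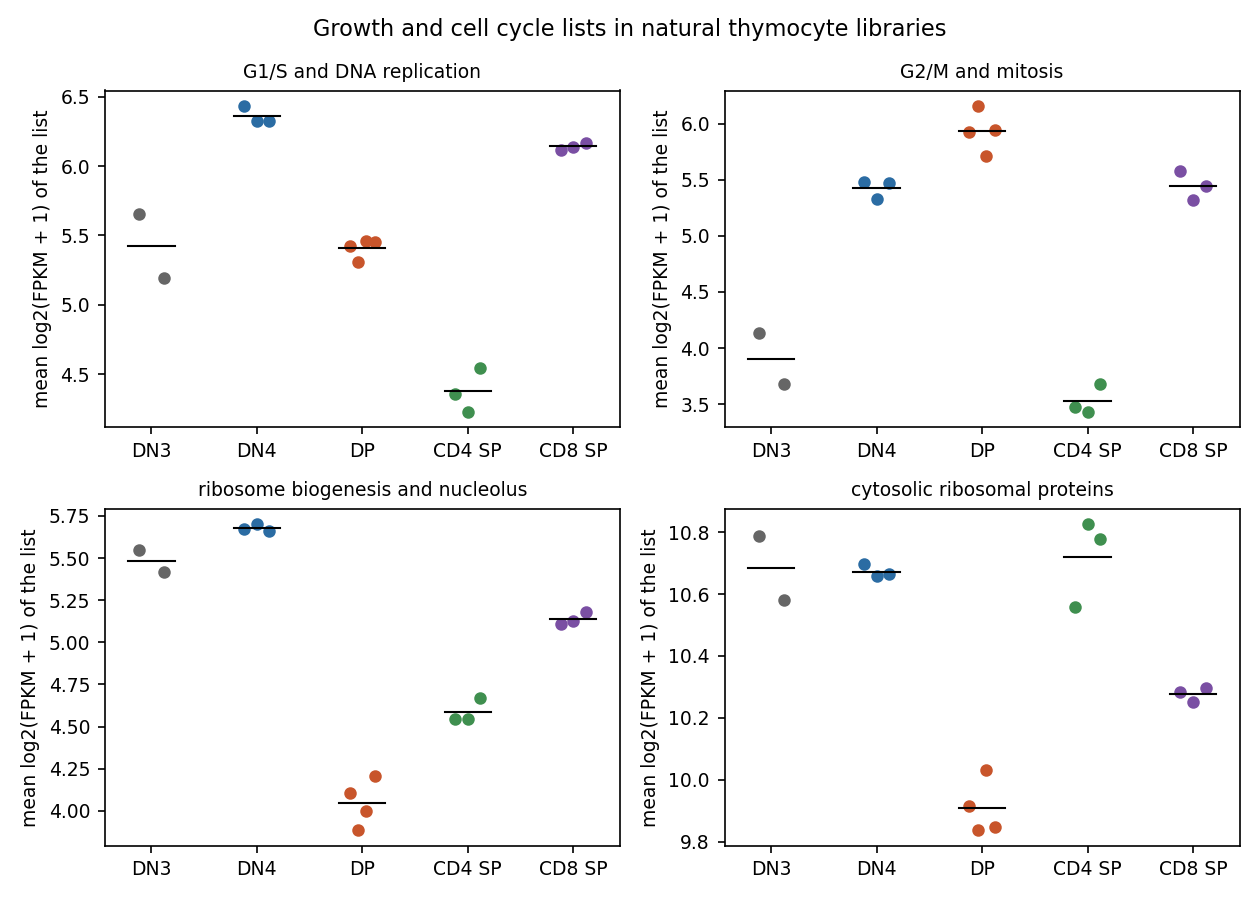
Mean log2(FPKM + 1) over the genes of 4 lists (y axis, a separate range in each panel) in natural DN3, DN4, DP, CD4 SP and CD8 SP libraries, with points for libraries and bars for means. From DN4 to DP the replication list goes from between 6.32 and 6.43 to between 5.31 and 5.46, while the mitosis list goes from between 5.33 and 5.48 to between 5.71 and 6.16.

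Promoter windows (250 bases before to 50 after a RefSeq gene start, build GRCm38.p6) were matched for 44 of the 56 replication genes (52 windows) and 47 of the 57 mitosis genes (50 windows), and searched for exact matches on either strand. The E2F letters TTGGCGC stood in 13 of the 52 replication windows (25%), 16.0% of the mitosis windows and 2.45% of all 32851 windows, and the E2F letters TTCCCGC in 36.5%, 2.0% and 4.6%. The letters TTTGAA of the cell cycle genes homology region, through which genes of late cell cycle phases are repressed in resting cells, stood in 15.4%, 74.0% and 17.9%, and its other form TTTAAA in 9.62%, 9 of the 50 windows and 13.2%. CCAAT, the NF-Y letters, stood in 59.6%, 72.0% and 37.4%. TTGGCGC and its reverse complement can overlap CCAAT. These shares describe the letters and say nothing of binding in these cells. The windows of 3 replication genes that fell and 2 mitosis genes that rose are shown as examples of each kind of match, chosen after the matches were seen, with matches to both kinds of E2F letters, to TTTGAA and to CCAAT in capitals (on either strand).
Mcm6 (chr1:128359656-128359955, minus strand): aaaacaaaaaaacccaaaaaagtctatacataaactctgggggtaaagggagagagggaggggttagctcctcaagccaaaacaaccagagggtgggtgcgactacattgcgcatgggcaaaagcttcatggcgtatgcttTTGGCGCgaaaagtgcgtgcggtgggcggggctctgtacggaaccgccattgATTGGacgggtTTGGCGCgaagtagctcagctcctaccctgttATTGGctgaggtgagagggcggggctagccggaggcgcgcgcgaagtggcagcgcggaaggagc
Mcm3 (chr1:20820263-20820562, minus strand): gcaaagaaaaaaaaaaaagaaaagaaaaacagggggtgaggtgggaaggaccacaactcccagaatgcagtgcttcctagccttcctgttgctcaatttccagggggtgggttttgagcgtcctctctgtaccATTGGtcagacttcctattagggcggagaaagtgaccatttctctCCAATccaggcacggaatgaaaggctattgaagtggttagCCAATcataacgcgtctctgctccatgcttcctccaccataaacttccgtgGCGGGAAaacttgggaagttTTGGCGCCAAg
Cdc6 (chr11:98907901-98908200, plus strand): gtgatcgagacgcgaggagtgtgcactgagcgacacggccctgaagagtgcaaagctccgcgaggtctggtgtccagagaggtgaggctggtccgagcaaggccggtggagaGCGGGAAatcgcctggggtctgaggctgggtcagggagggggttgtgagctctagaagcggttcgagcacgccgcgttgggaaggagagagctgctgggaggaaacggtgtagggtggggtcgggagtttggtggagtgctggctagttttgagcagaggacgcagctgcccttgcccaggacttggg
Ube2c (chr2:164769679-164769978, plus strand): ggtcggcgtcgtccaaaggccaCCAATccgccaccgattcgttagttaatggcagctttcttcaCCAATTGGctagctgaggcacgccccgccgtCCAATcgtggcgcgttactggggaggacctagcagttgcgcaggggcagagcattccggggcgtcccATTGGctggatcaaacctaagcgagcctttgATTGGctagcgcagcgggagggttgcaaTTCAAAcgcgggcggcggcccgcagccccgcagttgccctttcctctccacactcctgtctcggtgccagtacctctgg
Cenpa (chr5:30666636-30666935, plus strand): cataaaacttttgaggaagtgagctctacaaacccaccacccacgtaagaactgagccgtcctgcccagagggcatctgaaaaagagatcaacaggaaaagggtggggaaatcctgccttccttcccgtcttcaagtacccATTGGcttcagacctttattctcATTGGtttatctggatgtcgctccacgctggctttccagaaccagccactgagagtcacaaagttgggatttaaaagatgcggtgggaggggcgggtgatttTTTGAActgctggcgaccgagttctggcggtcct
Mcm6 has 2 matches to TTGGCGC upstream of the start, Mcm3 has E2F letters just after the start, and Cdc6 has TTCCCGC alone. Ube2c and Cenpa hold TTTGAA and CCAAT matches and no E2F letters of either kind. Other windows were unlike these: that of Ung, a replication gene, and that of Birc5, a mitosis gene, held none of the 4 marked motifs. The window of Ccnb1, a mitosis gene, held TTGGCGC and no TTTGAA, and that of Cdk1, the mitotic kinase, held both. TTTAAA, the other form of the homology region, was not marked, and it stood in the windows of Birc5, Ccnb1 and Cenpa.

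Of 26 cell cycle inhibitors, D cyclins and their partners, 11 rose and 3 fell, with a median of 0.73. Cdkn1b, which encodes the inhibitor p27, was 2.53, 2.47 and 1.31 FPKM in DN4 and 35.1, 24.9, 29.6 and 29.0 in DP (log2 fold change 3.32, SE 0.32, adjusted p = 1.68e-12). Rb1, the retinoblastoma gene, rose by 1.496, and the antiproliferative genes Ccng2, Btg1 and Btg2 by 2.35, 2.09 and 2.07. Ccnd3, the D cyclin that beta selection needs and the higher of the pair in both groups, rose from 154 ± 11.5 to 446 ± 57.5 FPKM, while Ccnd2 fell from 19.3 ± 1.40 to 1.15 ± 1.21. Their kinase partners fell, Cdk4 from 1170 ± 76.0 to 255 ± 56.4 FPKM (log2 fold change -2.22, adjusted p = 8.8e-19) and Cdk6 from 40.7 ± 10.3 to 10.9 ± 4.60.

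Growth genes fell. Of 39 genes of ribosome biogenesis and the nucleolus, 36 fell and none rose, with a median of -1.64 (30 and 0 with the 2 groups fitted alone). Npm1, a nucleolar chaperone, was 3470, 3693 and 3499 FPKM in DN4 and 600, 676, 842 and 760 in DP (log2 fold change -2.31, SE 0.12, adjusted p = 1.6e-23). Fbl, the methyltransferase of ribosomal RNA, was 168 to 172 FPKM in DN4 and 15.1 to 49.5 in DP, and Ncl, which encodes nucleolin, 95.8 to 105 and 21.0 to 32.4. Pwp2, of the small subunit processome, fell by 2.85, the most of the list. Wdr12 was the member with the highest fold change, at 47.2 to 57.6 and 60.2 to 93.4 FPKM, and did not pass (adjusted p = 0.196). The ribosomal proteins themselves fell by less: 66 of 79 genes fell and none rose, with a median of -0.81, and their summed FPKM was 227972 to 232699 in DN4 and 121077 to 146036 in DP. The ribosomal protein values moved with the scaling: 61 fell with each library scaled to an equal total (median -0.70), and 46 fell and 1 rose with quantile normalization (median -0.43). Of the ribosome biogenesis genes 36 fell under each of them, with medians of -1.55 and -1.60. The median of all genes at 5 FPKM or more in both groups was -0.01, and 0.09 and -0.07 under the 2 scalings. Many ribosomal protein genes have processed copies that can share their reads.

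Myc, which drives growth genes in dividing cells, fell from 70.0, 61.4 and 52.3 FPKM in DN4 to 29.7, 28.6, 7.66 and 15.1 in DP (log2 fold change -1.71, adjusted p = 5.14e-05). Mxd4, a Myc antagonist, rose by 1.77. The letters CACGTG, which Myc and its partners are known to bind, stood in 16.3% of 43 promoter windows of ribosome biogenesis genes and 7.15% of all windows, a pairing of motif and list that was chosen after the values had been seen. Their share was 13.5% in replication, 6.0% in mitosis, 12.5% in recombination and 6.45% in T cell receptor signaling windows.

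Glycolysis genes fell more often than they rose. Of 23 glycolysis genes, 12 fell and 2 rose, with a median of -0.82. Hk2, an inducible hexokinase, was 12.5, 23.6 and 27.6 FPKM in DN4 and 0.146, 3.71, 0.434 and 0.0907 in DP. Ldha fell from 1408 ± 48.9 to 396 ± 34.3 FPKM (log2 fold change -1.83, adjusted p = 4.15e-15), whereas Ldhb, the other lactate dehydrogenase subunit, rose from 108 ± 8.83 to 523 ± 80.2 (log2 fold change 2.25). Per length, Ldha was thus the more abundant of the pair in DN4 and Ldhb in DP. Pkm fell by 1.76, and Pdk1, which keeps pyruvate from the mitochondria, rose by 1.49. Of 25 nutrient transporter and mTORC1 genes 9 fell and 8 rose (6 and 5 with the 2 groups fitted alone). Those that fell included carriers of iron, amino acids and folate: Tfrc, Slc7a5 and Slc19a1 fell by 1.74, 1.81 and 2.38. Those that rose included Txnip, an inhibitor of glucose uptake (1.53), and Rictor, a part of the other mTOR complex (1.67). Of 85 nuclear genes of the respiratory chain 34 fell and 3 rose (7 with quantile normalization), with a median of -0.38. Mitochondrially encoded genes had a median of 0.36, with 2 of 13 higher, 4 with equal totals or quantile normalization and 8 of 12 with the 2 groups fitted alone.

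Among BCL-2 family protectors, Bcl2l1 rose and Bcl2 fell. Bcl2l1, which encodes BCL-xL, was 12.8, 13.1 and 11.9 FPKM in DN4 and 61.3, 54.4, 59.6 and 60.1 in DP (log2 fold change 2.14, SE 0.36, adjusted p = 3.64e-06). Bcl2 was 5.31, 6.10 and 5.25 FPKM in DN4 and 0.591, 3.16, 2.44 and 1.48 in DP, a log2 fold change of -1.26 (adjusted p = 0.000105, but 0.0752 with the 2 groups fitted alone). Mcl1, a further protector, rose by 1.19, and Bcl2l11, which encodes the killer BIM, by 1.26. Fas, a death receptor, was 8.34, 5.16 and 3.07 FPKM in DN4 and 41.3, 76.8, 86.4 and 88.2 in DP (log2 fold change 3.53). Bax fell from 13.2 ± 0.915 to 3.62 ± 3.85 FPKM, but its DP libraries ran from 0 to 7.90, and the call was lost with the 2 groups fitted alone (adjusted p = 0.0705). Of 28 apoptosis regulators 6 rose and 5 fell. The 5 that fell became 1 with the 2 groups fitted alone, 2 without DP replicate 2, and 3 without DN4 replicate 1, DN4 replicate 2 or DP replicate 3.

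Many MHC class I genes, whose levels are known to climb late in thymocyte maturation, fell. Of 19 genes of MHC class I and antigen processing, 11 fell and 2 rose, with a median of -0.89. H2-K1, a classical class I gene, was 375, 408 and 435 FPKM in DN4 and 54.3, 95.8, 85.8 and 98.9 in DP (log2 fold change -2.30, SE 0.15, adjusted p = 2.82e-18). H2-D1, the other classical gene, was 228 to 272 FPKM in DN4 and 181 to 285 in DP, and the groups overlapped. B2m, the shared light chain, fell from 1994 ± 145 to 1188 ± 79.8 FPKM, and H2-Q7 fell by 3.49. H2-T23, a nonclassical gene, rose from 30.3 ± 0.0335 to 62.4 ± 16.1 FPKM. Class I genes are alike in sequence and can share reads. Nlrc5, the activator of class I genes, was 8.19 to 12.8 FPKM in DN4 and 0.926 to 10.2 in DP, and its call was lost with the 2 groups fitted alone (adjusted p = 0.105). Of 18 interferon response genes 1 rose and 3 fell (5 with a pseudocount of 0.1).

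Chromatin genes divided into 12 higher and 11 lower of 43 (8 and 7 with the 2 groups fitted alone). Dnmt1, the maintenance DNA methyltransferase, fell from 150 ± 4.08 to 62.4 ± 10.7 FPKM, and Dnmt3b was 7.54, 10.8 and 7.86 FPKM in DN4 and 0, 0.615, 0 and 0 in DP. Kdm6b, a demethylase of H3K27, rose by 2.00 and Hdac7, a class IIa deacetylase of DP cells, by 1.51. Ezh2, the H3K27 methyltransferase, overlapped at 244 to 283 and 189 to 280 FPKM. Of 50 clustered histone genes 14 rose and 1 fell. Hist1h1c, a linker histone, rose from 16.7 ± 1.59 to 71.3 ± 10.7 FPKM and Hist1h3e from 3.20 ± 1.70 to 31.5 ± 4.97.

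Several immediate early genes rose. Of 20 immediate early and stress genes, 11 rose and 3 fell, with a median of 0.85. Fos, Jun and Junb, which make up AP-1, rose by 1.23, 2.23 and 1.57, and Zfp36, which destabilises cytokine transcripts, by 2.35. Dnajb1, a co-chaperone of heat shock proteins, rose by 0.83. The members that fell were the heat shock genes Hspa8 (1280 ± 101 to 477 ± 54.7 FPKM), Hsp90aa1 (533 ± 99.6 to 245 ± 27.1) and Hsph1. Some of the receptor signal genes rose too. Nfkbia, an inhibitor and target of NF-kappa B, was 110, 97.2 and 106 FPKM in DN4 and 886, 954, 911 and 933 in DP (log2 fold change 3.13, SE 0.23, adjusted p = 8.12e-17), and Cd69, an activation marker, 42.0, 33.9 and 39.8 against 81.1, 105, 204 and 187. Others did not: Egr1 overlapped at 5.41 to 8.73 and 3.85 to 8.47 FPKM, and Itm2a, a gene of positively selected cells, fell from 70.6 ± 13.2 to 21.8 ± 12.2. Nr4a1 was 6.54 to 13.9 and 16.8 to 34.6 FPKM, with a call (adjusted p = 0.0357) that was lost in 8 alternatives (adjusted p from 0.0565 to 0.204). In all, 4 of 19 positive selection and receptor signal genes rose and 4 fell (6 and 2 with the 2 groups fitted alone, and 2 higher with a pseudocount of 0.1).

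Of 24 genes of single positive maturation, 9 fell and 5 rose. Ly6a, which encodes Sca-1, fell from 35.1 ± 6.62 to 2.26 ± 4.26 FPKM, while Cd52, a surface glycoprotein of mature lymphocytes, rose from 122 ± 23.7 to 414 ± 88.4.

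Apart from the coreceptors and Il4ra, the 15 largest rises chosen by rule were the nuclear noncoding RNA Malat1 (11.1 ± 3.76 to 258 ± 56.1 FPKM), the kinase gene Fn3k, the meiotic recombination gene Spo11, Nhsl1, Lypd6b, the acetylcholine receptor gene Chrna9, the peptide hormone gene Insl5, P3h4, the cystine transporter gene Slc7a11, the clotting factor gene F13a1 and Gramd3. Their log2 fold changes ran from 3.67 to 4.45. Spo11, a gene known for double-strand breaks in meiosis, was 4.28, 7.70 and 9.03 FPKM in DN4 and 199, 120, 120 and 138 in DP (adjusted p = 9.41e-13). Chrna9 was 16.9, 18.05 and 5.48 FPKM in DN4 and 173, 228, 265 and 177 in DP, and Insl5 rose from 5.29 ± 2.05 to 89.0 ± 17.2.

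The 15 largest falls chosen by the same rule began with Plac8, which was 398, 532 and 533 FPKM in DN4 and 6.29, 0.454, 2.27 and 0 in DP (log2 fold change -7.64, SE 0.31, adjusted p = 4.47e-27). S100a4, a calcium-binding protein gene, was 50.8, 49.6 and 69.1 FPKM in DN4 and listed at 0 in 3 of 4 DP libraries, as was Cd163l1, a scavenger receptor gene known from gamma delta T cells, after 43.4 to 50.9 FPKM in DN4. Blk and Etv5, also known from gamma delta T cells, fell by 5.09 and 4.91. Srm, which makes spermidine, fell from 207 ± 11.8 to 7.60 ± 4.59 FPKM. Smyd2 and Smyd5, of the SET domain methyltransferase family, fell by 5.51 and 4.70. Timm10 (mitochondrial import), Rrp15 (ribosome assembly), Dctd (deoxycytidylate deaminase), Rgs1 and Klk8 fell by between 4.26 and 4.55. Cpa3, a mast cell protease gene, was 24.7, 26.2 and 31.2 FPKM in DN4 and Cd320, the receptor for vitamin B12 uptake, 13.8, 19.3 and 25.1, and both were listed at 0 in every DP library.

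Placed among neighbouring natural stages, several of these genes had their lowest or highest level in DP. Rag1 was 60.7 and 87.6 FPKM in the 2 DN3 libraries, lower in DN4, highest in DP, and 1.02 to 9.22 in CD4 SP. Il7r was 54.7 and 74.3 FPKM in DN3 and 290 to 354 in CD4 SP, and every DP library lay below every library of the other 4 stages. The same held for H2-K1, which was 2146 to 2875 FPKM in CD4 SP, and for Bcl2, which was 40.1 to 48.8 in CD4 SP. Bcl2l1 and Cd8a were higher in every DP library than in any library of the other 4 stages. Cdkn1b was as high in CD4 SP (17.8 to 37.7 FPKM) as in DP, with overlapping libraries. S1pr1 was listed at 0 in DN3 and was 102 to 155 FPKM in CD4 SP. In natural CD8 SP libraries Rag1 (27.6 to 38.9 FPKM) and Bcl2l1 (5.96 to 14.1) lay nearer to their DN4 than to their DP levels. These levels are a description, and no test between the other stages is given here.

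**Figure D4:**
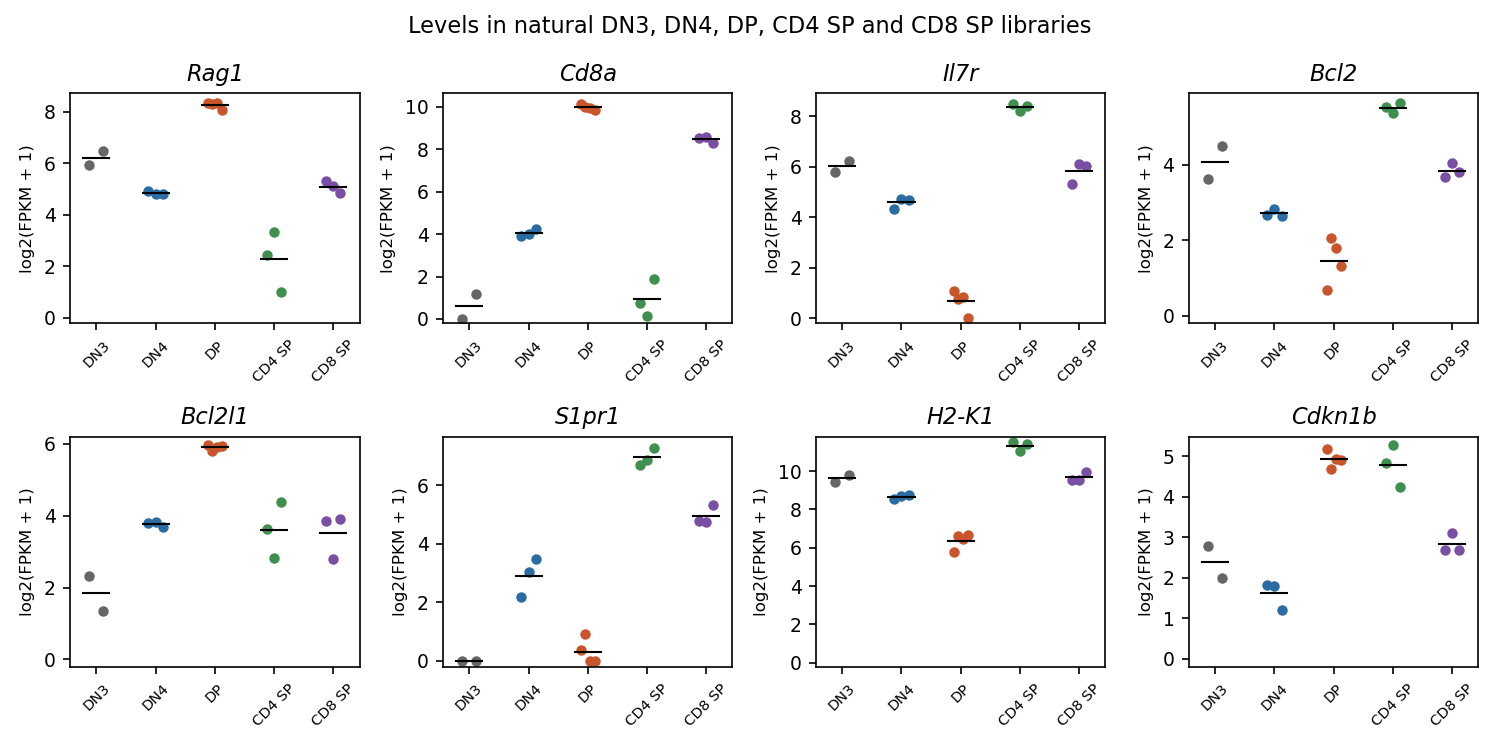
Levels of 8 genes as log2(FPKM + 1) (y axis, a separate range in each panel) in natural DN3, DN4, DP, CD4 SP and CD8 SP libraries, with points for libraries and bars for means. DP libraries are highest in Rag1, Cd8a and Bcl2l1 and lowest in Il7r, Bcl2 and H2-K1.

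The same step was measured in induced cells, from 4 induced DN4 to 3 induced DP libraries, which share no sample with the natural groups. Induced libraries were deeper by the same estimate, at 5.89 to 10.7 fragments per FPKM and kilobase against 3.76 to 4.39 in the natural ones. The part of depth in the differences between the steps was not tested. In the induced step 3407 of 17416 genes passed (19.6%), 1603 higher (9.2%) and 1804 lower (10.4%). The coreceptors rose there as well: the induced log2 fold changes of Cd8a, Cd8b1 and Rag1 were 6.44, 5.204 and 2.90, those of Tcrg-C2, Npm1 and Mcm6 were -6.99, -2.18 and -1.66, and that of Bcl2l1 was 2.36. Across genes the natural and induced changes correlated at 0.671 (Pearson, 17416 genes that are not independent and include many low ones). The difference between the steps passed in 191 genes (1.1%), of which 87 were higher (0.5%) and 104 lower (0.597%) in the induced step, and in 27 genes with the 4 groups fitted alone. Of the 191, 91 rose in the natural step and rose less or fell in the induced one, and 54 fell in the natural step and fell less or rose in the induced one. A further 3 rose more and 1 fell more in the induced step, and 42 had not passed in the natural step. Choosing genes that passed both in the natural step and in the difference favours smaller induced changes, so these counts do not rank the steps.

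No gene of the replication, mitosis, ribosome biogenesis, ribosomal protein, receptor signaling or calcium lists passed the test of the difference, and a p above the threshold does not show that the steps are alike. Cd4 rose more in induced cells (log2 fold change 6.31 against 5.09, adjusted p = 0.0355). Among the lists, the immediate early genes held the most that differed, with 5 of 20 lower in the induced step than in the natural one. Cd69 rose by 1.78 in the natural step and fell by 1.63 in the induced one (adjusted p = 7.01e-06), and Fos rose by 1.23 and fell by 1.04 (adjusted p = 0.000617). Junb differed by -1.86, Nfkbia by -1.60 and Sox4 by -1.54, and the metabolic genes Pdk1 and Rictor by -1.24 and -1.43. By the naming rule, the largest differences toward higher induced change were in Fbxo17, Dnase1l1, Capg, Smyd5, Doc2g, Zfp3, Cd200r1 and Plpp5, between 2.95 and 3.83. Those toward lower induced change were in Snx18, Cd69, Dusp6, Slc15a2, Malat1, Klf4, Nr4a2 and Srsf9, between -3.67 and -2.50. Dusp6, a phosphatase of the ERK pathway, was 0.931 to 3.88 FPKM in natural DN4 and 22.5 to 39.3 in natural DP, and its induced change was 0.17. Several of these calls hung on single choices: with the 4 groups fitted alone those of Fbxo17, Doc2g, Zfp3, Cd200r1, Plpp5, Nr4a2 and Srsf9 were lost, Srsf9 was lost in 17 alternatives (adjusted p from 0.0546 to 0.403) and Nr4a2 in 13 (adjusted p from 0.0502 to 0.161). Srsf9 was 64.7, 27.2 and 3.38 FPKM in the DN4 libraries. The Klf4 call was lost with a pseudocount of 0.1 (adjusted p = 0.0531). Lost calls are given here only for genes of the naming rule. The other differences named, among them Cd4, Sox4, Pdk1, Rictor and Junb, are given from the fit over all groups only and may not hold under another. Without DN4 replicate 2, DN4 replicate 3 or induced DP replicate 2 the 191 genes became 113, 106 and 103.

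**Figure D5:**
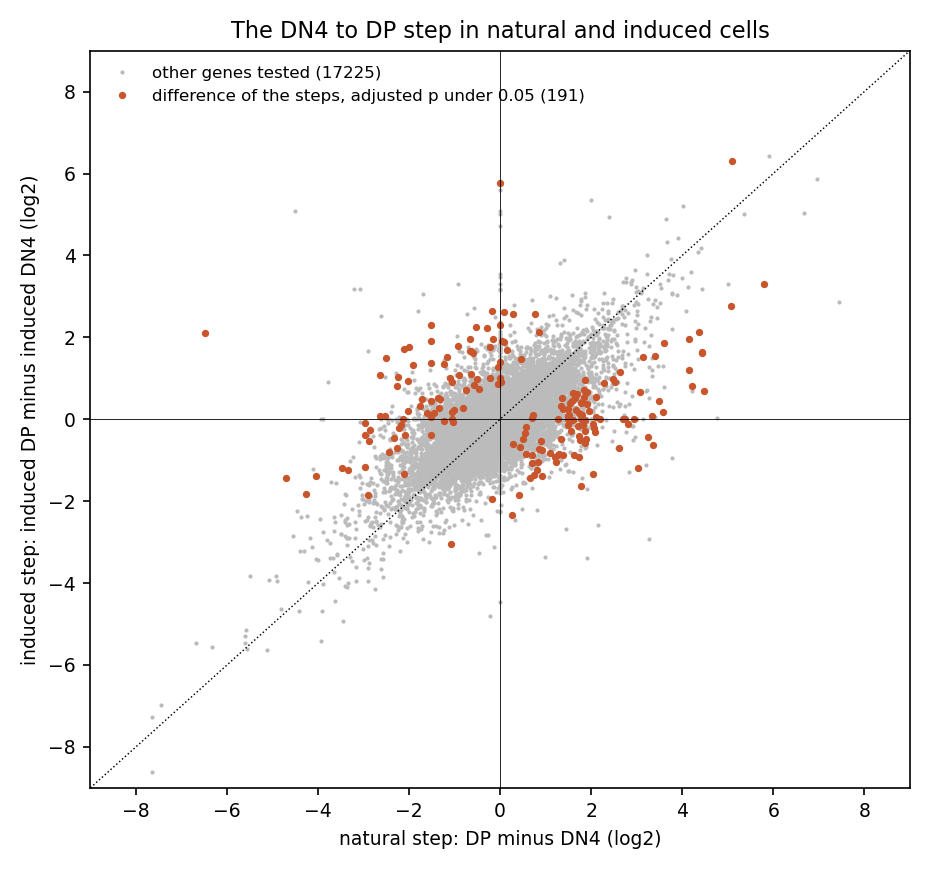
Log2 fold change from DN4 to DP in natural cells (x axis) against that in induced cells (y axis) for 17416 genes, with the 191 genes whose difference passed the threshold in orange, the other 17225 in grey and equal change as a dotted line. Orange points lie off the dotted line, 87 above it and 104 below.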

How the data were processed

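RNA of 1000 sorted cells per library was sequenced. The authors deposited 1 table of FPKM values for 37980 genes, made with bcl2fastq, TopHat, Cufflinks 2.2.1 and Cuffnorm on build NCBIM37 per the submitters' processing notes; the annotation, parameters and normalization are not given in the sources used here. Gene symbols were matched by identifier to GENCODE vM21 (GRCm38), which named 32935 genes (86.7%), and coordinates are of that build, not the authors'. Groups came from the titles. One of 76 libraries was identical to another and was left out. Genes at 1 FPKM or more in at least 2 libraries (17416) were tested on log2(FPKM + 1), a scale that understates changes of low genes. limma 3.58.1 (R 4.3.3) fitted 1 mean per group over 24 groups with trended, robust variances and 51 residual degrees of freedom, and two-sided p-values were adjusted by Benjamini-Hochberg at 0.05. Adjusted p-values in the text are from this model unless the sentence names another setting, whose limma fit then gave the value. Tables were computed in Python 3.11.15 with pandas 2.3.3 and numpy 2.4.6, and figures drawn with matplotlib 3.10.9.

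The fit was also run on simulated data with known changes, but the outcome is not given here and backs no call. The fit shares 1 variance per gene over all groups, while DP libraries varied more than DN4 libraries. Counts with the 2 groups fitted alone are therefore given beside it. Genes named by rule were the 15 highest and 15 lowest called fold changes whose higher group averaged 5 FPKM or more and whose libraries did not overlap (receptor segments, small RNAs, pseudogenes and predicted genes were passed over), and the 8 highest and 8 lowest differences between the steps. Other named genes are members of lists. The members and lists were chosen with earlier results of these data known. Alternatives were a pseudocount of 0.1, no filter, a filter of 5 FPKM in 3 libraries, equal totals, quantile normalization, library weights, fewer groups in the fit, a replicate block and leaving out each library. Replicate numbers are not given in the labels as shared animals or days, so the samples were not paired.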

Additional observations from a re-analysis of the deposited data

Results flagged for a closer look

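In 21 of 192 named genes tested, 1 DP library stood apart from the other 3 by Dixon's criterion, and chance gives about 1 in 20. The library apart was replicate 3 in 8 genes, replicate 1 in 6, replicate 4 in 5 and replicate 2 in 2. DP replicate 3 was apart in Cd28 (122 FPKM), Rag2 (118), Trbc2 (3909), Ezh2 (189), Slc7a11 (9.17), S100a4 (0.883), Dctd (0.125) and Cd200r1 (0.229). DP replicate 1 was apart in Ly6a (8.64 FPKM), Sox13 (0.0876), Cd163l1 (0.0803), Blk (0.462), Capg (0.258) and Doc2g (0.769). DP replicate 4 was apart in Rag1 (265 FPKM), Xrcc5 (1.14), Il2ra (0.457), Pdk1 (101) and Etv5 (0.609), and replicate 2 in Dnmt3b (0.615) and Srm (0.754). In 9 of the genes, Dnmt3b, Sox13, S100a4, Cd163l1, Blk, Dctd, Capg, Doc2g and Cd200r1, the other 3 libraries were listed at 0, so a value below 1 FPKM was enough to stand apart.

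In the fit over all groups, the step from DN4 to DP differed between induced and natural cells in 26 named genes, by limma's test of the difference itself. As induced minus natural log2 fold change, the difference was positive in Cd4 (1.22), Smyd5 (3.27), Klk8 (2.43), Fbxo17 (3.83), Dnase1l1 (3.77), Capg (3.73), Doc2g (3.28), Zfp3 (3.23), Cd200r1 (3.07) and Plpp5 (2.95). It was negative in Sox4 (-1.54), Pdk1 (-1.24), Rictor (-1.43), Nfkbia (-1.60), Cd69 (-3.41), Fos (-2.27), Junb (-1.86), Malat1 (-2.81), Fn3k (-2.24), Nhsl1 (-2.20), Snx18 (-3.67), Dusp6 (-3.40), Slc15a2 (-2.94), Klf4 (-2.65), Nr4a2 (-2.61) and Srsf9 (-2.50).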

How the results depend on the processing

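The count of 4288 genes fell to 2649 (1303 higher, 1346 lower) with only the 2 groups fitted, where 11583 genes could be tested, and lay between 3500 and 4433 under the other alternatives. Leaving out 1 library gave 3500 to 4269 genes, 1661 to 2110 higher and 1839 to 2159 lower. The induced step gave 2788 to 3056 genes when 1 library was left out. The 191 genes that differed between the steps became 27 with only the 4 groups fitted and 103 to 251 without 1 library. Of 198 named genes 182 passed, 156 of them under every alternative run and 26 not under at least 1. With only the 2 groups fitted 14 were lost, and none reversed. The replicate block gave 4425 genes for the step and 169 for the difference, against 4288 and 191, and deviations of DN4 and DP libraries, same-numbered or not, correlated at -0.02 to 0.02. At 3.76 to 4.39 fragments per FPKM and kilobase, a value below 1 FPKM rests on a few fragments.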

Other observations

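Gene classes other than protein-coding genes were counted as well. Of 226 long intergenic noncoding RNAs tested, 23 were higher in DP (10.2%) and 8 lower (3.54%), and of 525 antisense genes 39 were higher (7.43%) and 17 lower (3.24%). Among 1117 processed pseudogenes 26 were higher (2.33%) and 84 lower (7.52%), while among 50 unprocessed pseudogenes 5 were higher and 2 lower. Of 133 small nucleolar RNAs 2 were higher (1.5%) and 4 lower (3.01%), and of 74 miRNAs none was higher and 1 lower. Protein-coding genes were divided into 1780 higher (13.2%) and 2032 lower (15.1%) of 13451. Antisense genes and processed copies can take up reads of the genes they overlap or copy.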
